A study of Mus musculus with 20 samples.

Results

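The 10 genes described here encode proteins that carry, store, use or bind iron and heme, and they are 10 of the 24888 genes in a table of nascent RNA from mouse bone-marrow-derived macrophages (BMDMs). They were chosen by name, as the rows for *Slc40a1*, *Slc11a1*, *Slc11a2*, *Slc25a37*, *Tfrc*, *Hmox1*, *Fth1*, *Alas1*, *Lcn2* and *Cp*, with earlier results from the same libraries already known. *Slc40a1* had been singled out for its difference between genotypes at 2 h, so that difference is given as a description and no p-value is attached to *Slc40a1*. RNA still bound to chromatin was sequenced from wild-type (WT) BMDMs and from BMDMs of the cRel-/- genotype, written here *Rel*-/-, after 0, 0.5, 1, 2 and 6 h of lipid A, the part of bacterial lipopolysaccharide that activates Toll-like receptor 4. Every combination of genotype and hour had 2 libraries, 20 in all.

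The WT cells came from C57BL/6 mice and the mutant cells from *Rel*-/- mice kept in a C57BL/6 background, and all of the animals were male. Marrow cells from either genotype were grown for 6 days in medium with 8% CMG and then received lipid A, while the 0-h cells were unstimulated. By the study's methods the replicates are independent biological repeats of the time course with WT and mutant cells handled side by side, and marrow was pooled from several mice. The labels carry only the replicate number. Values are RPKM, the reads over the whole span of a gene, introns included, scaled to the length of the gene and to the depth of the library.

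Iron enters macrophages bound to transferrin or inside engulfed red cells, whose heme is opened by heme oxygenase to release the metal. The iron is then stored in ferritin, built into new heme and iron-sulfur clusters in mitochondria, or returned to the plasma through ferroportin, the only known cellular iron exporter of mammals. During bacterial infection macrophages are known to hold back iron, in part by lowering ferroportin, and to secrete proteins that bind the iron carriers of bacteria.

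The depth recovered from the values was 21094000 to 45439000 reads per library, with a median of 30792500 in WT and 34561500 in *Rel*-/- libraries. All 10 macrophage markers examined, among them *Csf1r*, *Adgre1* and *Spi1*, exceeded 1 RPKM in at least 1 library, and their summed level was 60.5 to 215 RPKM with *Cd68* (12.6) and *Cd14* (10.6 RPKM) the highest on median. Of 11 erythroid markers, which bear on genes of heme metabolism, none exceeded 1 RPKM in any library, 10 stayed at or under 0.1 RPKM, and the sum was 0.131 to 0.425 RPKM, highest in *Rel*-/- replicate 1 at 0 h and next in WT replicate 2 at 0 h (0.313). The globin gene *Hba-a1* was at no more than 1 read in every library. In the neutrophil list of 12 genes, the receptor gene *Csf3r* (0.73 to 31.7 RPKM) was the most abundant and the only gene over 1 RPKM. The sum of the other 11 neutrophil genes was 0.258 to 1.59 RPKM, with 0.289 in WT replicate 1 and 1.59 in WT replicate 2 at 0 h. Lymphoid genes summed to 0.0405 to 1.18 RPKM, dendritic genes to 0.132 to 2.31 RPKM and stromal genes to 0.00751 to 0.228 RPKM, and the highest single values were of *Lck* (1.11), *Batf3* (2.16) and *Pdgfrb* (0.216 RPKM). In bulk RNA, fewer cells of a type and less RNA per cell cannot be told apart.

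*Rel* itself, at chr11:23641729-23670970 in the NCBIM37 (mm9) build used throughout for gene positions, did not separate the genotypes when reads over the whole gene were counted. At 0, 0.5, 1, 2 and 6 h, *Rel* was at 1.32, 7.48, 10.3, 9.74 and 3.95 RPKM in WT replicate 1 and at 2.76, 20, 18, 12 and 7.33 RPKM in WT replicate 2. The libraries labelled *Rel*-/- held 2, 10.5, 15.6, 9.24 and 4.22 RPKM in replicate 1 and 2.79, 15, 16.2, 9.96 and 4.91 RPKM in replicate 2. The ranges overlapped at every time point, and a count over the whole span cannot show whether a deleted segment is missing. The mutant libraries are therefore called the libraries labelled *Rel*-/-.

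The 2 WT time courses differed from each other more than the 2 *Rel*-/- time courses did. Across genes, log2 RPKM of the paired replicates correlated at 0.9200 to 0.9694 in WT and at 0.9828 to 0.9903 in *Rel*-/-, and *Rn45s*, the ribosomal RNA precursor, took 11 to 17.9% of gene reads in WT replicate 1 but 2.42 to 4.55% in WT replicate 2. In the *Rel*-/- libraries *Rn45s* took 3.48 to 6% in replicate 1 and 1.56 to 2.9% in replicate 2. For this reason values are given for each replicate, and the results below that rest on a single time course are named.

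Among the 10 genes, *Fth1* had by far the most nascent RNA per kilobase in unstimulated WT cells, at 52.2 ± 13.3 RPKM (SD, n = 2). *Slc11a1* (6.61 ± 1.22), *Hmox1* (5.76 ± 4.22), *Slc40a1* (4.88 ± 2.12) and *Slc25a37* (4.6 ± 0.341) followed, with overlap between neighbours in this run. *Slc11a2* (2.48 ± 1.86), *Alas1* (1.47 ± 0.489), *Tfrc* (1.4 ± 1.08) and *Cp* (0.85 ± 1.14) formed a lower, overlapping run. *Lcn2* had the lowest mean, 0.0666 ± 0.0695 RPKM, and its values overlapped those of *Cp*. By 6 h of lipid A the WT order was different, with *Slc25a37* (10.2), *Hmox1* (10.1), *Slc11a2* (9.89) and *Cp* (9.86 RPKM) overlapping below *Fth1* (103 RPKM), and *Slc40a1* (0.162) and *Tfrc* (0.0593 RPKM) at the bottom. Of the 10 genes, 9 counted as expressed, which asks for a WT group mean above 3 RPKM in at least 1 of the 5 time points, and *Tfrc*, with a highest WT mean of 1.4 RPKM, did not. *Slc40a1* passed at 0 h only, and *Alas1* and *Lcn2* at 6 h only, so whether these 3 were tested depended on the group in which they were high.

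Differences were tested with limma, a linear model fitted to every gene whose estimate of the spread borrows from all genes, on log2(RPKM + 0.1) of the 20 libraries. A gene was called at an adjusted p under 0.05, Benjamini-Hochberg over the 2980 expressed genes. The added 0.1 RPKM makes these log2 values understate the change of low genes, so folds are given as ratios of mean RPKM, and ± beside a log2 value is its SE. The replicate block, an alternative, adds a term for the replicate number shared across groups.

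**Figure D1:**
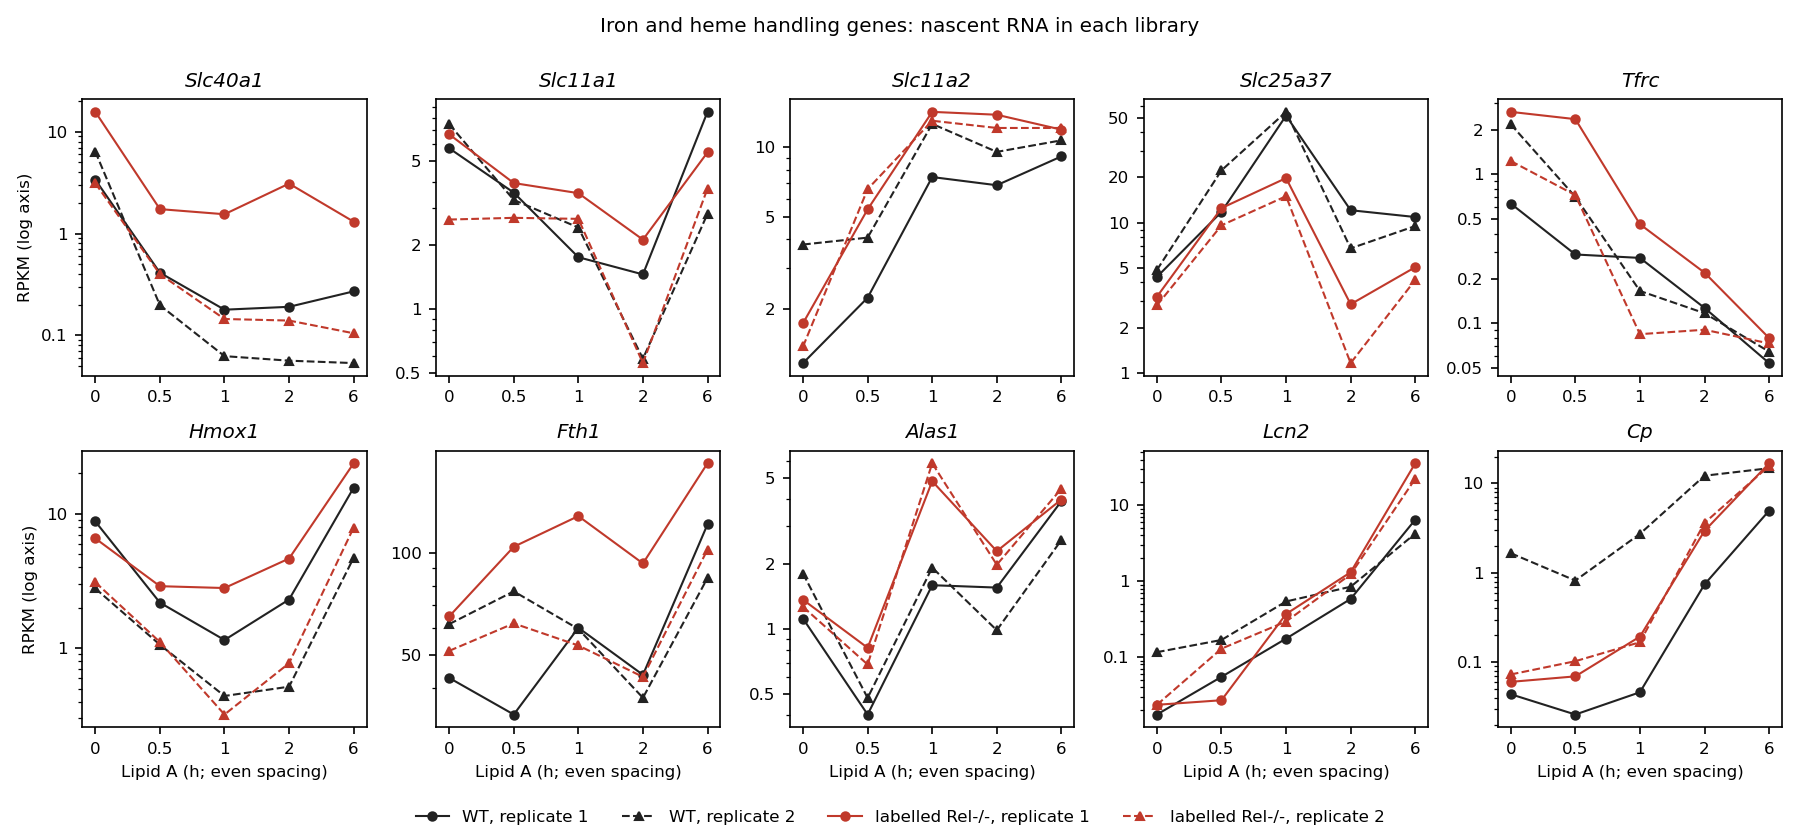
RPKM of the 10 genes on logarithmic axes against hours of lipid A, placed at even spacing, with 1 line per time course of 5 libraries (black, WT; red, labelled *Rel*-/-; solid with circles, replicate 1; dashed with triangles, replicate 2). *Slc40a1* and *Tfrc* run downwards, *Lcn2* and *Cp* upwards, *Slc25a37* peaks at 1 h, and the *Slc40a1* line of *Rel*-/- replicate 1 lies above the other 3 from 0 h onwards.

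Iron export was represented by *Slc40a1*, which encodes ferroportin and lies at chr1:45964915-45982439. In WT cells it was at 3.38 and 6.38 RPKM at 0 h (replicates 1 and 2), 0.413 and 0.198 at 0.5 h, 0.179 and 0.0626 at 1 h, 0.191 and 0.0565 at 2 h, and 0.271 and 0.0535 RPKM at 6 h. In the libraries labelled *Rel*-/- it was at 15.7 and 3.12 RPKM at 0 h, 1.74 and 0.4 at 0.5 h, 1.55 and 0.145 at 1 h, 3.1 and 0.14 at 2 h, and 1.31 and 0.105 RPKM at 6 h. Every stimulated library lay below its own 0-h library in each of the 4 time courses. The mean at 1 h was 40.4-fold lower than at 0 h in WT and 11.1-fold lower in *Rel*-/- cells. On the log2(RPKM + 0.1) scale the 1-h values were −4.48 ± 1.31 and −3.49 ± 1.31. *Slc40a1* counted as expressed through its WT 0-h group alone, so in WT a lower later level was part of its being tested, and these values are given as a description.

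The genotype difference in *Slc40a1* came largely from a single time course. *Rel*-/- replicate 1 was the highest of the 4 libraries at every time point, including before stimulation, whereas *Rel*-/- replicate 2 lay between the WT replicates at 0.5, 1, 2 and 6 h and below both at 0 h. The ratio of the means at 2 h was 13.1. Between libraries of the same number it was 16.2 in replicate 1 and 2.48 in replicate 2, and at 0 h these ratios were 4.64 and 0.489. At 0.5, 1 and 6 h they were 4.2, 8.65 and 4.86 in replicate 1 and 2.02, 2.31 and 1.97 in replicate 2. On the log2(RPKM + 0.1) scale the difference at 2 h was 2.04 ± 1.31 (limma) with all libraries, 0.17 without *Rel*-/- time course replicate 1 and 3.91 without *Rel*-/- time course replicate 2. The *Slc40a1* values rest on few reads in stimulated WT cells, with 76 and 37 reads at 2 h against 1509 and 80 in the *Rel*-/- libraries. The summed erythroid markers, all 11 at or under 1 RPKM, were at 0.425 and 0.158 RPKM in the *Rel*-/- libraries at 0 h and 0.199 and 0.157 RPKM at 2 h, and their part in the *Slc40a1* values was not tested.

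None of the 4 genes examined beside *Slc40a1* was expressed by the threshold. The nearest on the lower-coordinate side, *Wdr75*, 84.4 kb away, had mean values of 0.297 RPKM in WT and 0.331 RPKM in *Rel*-/- libraries at 2 h, a ratio of 1.11. *Col5a2*, *Stk-ps2* and *Dnah7b*, the other neighbours examined, never exceeded 0.00283, 0.00473 and 0.000575 RPKM. Over the 20 libraries, the expressed genes whose log2 values followed *Slc40a1* most closely were *Pisd-ps1* and *Pisd-ps3* (Pearson r 0.896 for each), *Plekhm1* (0.884), *Arrdc1* (0.883) and *Pnisr* (0.876). *Pisd-ps1* and *Pisd-ps3* are near-identical copies with almost the same values, so their reads may be shared. Ratios of *Rel*-/- to WT means at 2 h were 1.49, 1.49, 2.27, 1.09 and 1.04 in these 5 genes, and these likenesses are a description of libraries that share time points.

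Transport into the cytosol was represented by *Slc11a1*, *Slc11a2* and *Tfrc*. *Slc11a1* (chr1:74421777-74432625) encodes the phagosomal metal transporter NRAMP1, in which a natural mutation makes mice susceptible to intracellular microbes. The allele of the C57BL/6 mice used was not examined here, and RNA levels do not show whether the transporter works. It was at 5.75 and 7.47 RPKM in WT libraries at 0 h, 1.46 and 0.584 RPKM at 2 h, and 8.54 and 2.82 RPKM at 6 h. In the libraries labelled *Rel*-/- the same time points gave 6.69 and 2.65, 2.13 and 0.557, and 5.5 and 3.71 RPKM. Each time course was at its lowest at 2 h. The log2 change at 2 h was −2.69 ± 0.64 in WT (limma, adjusted p = 0.00469) and −1.84 ± 0.64 in *Rel*-/- (adjusted p = 0.0295), a fall in each. The WT fall no longer passed without WT 2 h replicate 2 (log2 −2.09) or WT time course replicate 2 (−1.90), and the *Rel*-/- fall without *Rel*-/- 0 h replicate 1 (−1.18) or 2 h replicate 2 (−0.96), without either *Rel*-/- time course (−2.06 and −1.61), or, at the same −1.84, with all 24888 genes tested or only the libraries compared fitted. The means at 6 h were 0.859 and 0.987 of those at 0 h, with limma adjusted p = 0.639 and 0.919.

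*Slc11a2* (chr15:100223089-100253486), which encodes DMT1, the importer of ferrous iron from endosomes, moved the opposite way. In WT it was at 1.17 and 3.8 RPKM at 0 h, 2.24 and 4.07 at 0.5 h, 7.43 and 12.6 at 1 h, 6.85 and 9.54 at 2 h, and 9.12 and 10.7 RPKM at 6 h. The *Rel*-/- libraries held 1.74 and 1.38 RPKM at 0 h, 5.39 and 6.59 at 0.5 h, 14.2 and 13 at 1 h, 13.8 and 12.1 at 2 h, and 11.9 and 12.1 RPKM at 6 h. At 1 h and later every library lay above both 0-h libraries of its genotype. The rise at 1 h was 4.04-fold in WT means (log2 2.14 ± 0.45, limma adjusted p = 0.00265) and 8.74-fold in *Rel*-/- means (log2 3.06 ± 0.45, adjusted p = 0.000285). The WT call was lost when only the libraries compared were fitted (2.14), and the *Rel*-/- call without *Rel*-/- time course replicate 1 (3.16) or 2 (2.96). The larger fold in *Rel*-/- cells went with a lower 0-h mean, 1.56 against 2.48 RPKM, but not in replicate 1. There the *Rel*-/- library was the higher at 0 h, and its 1-h ratio was 8.15 against 6.38 in WT. In replicate 2 these ratios were 9.49 and 3.32. The difference between the 2 changes did not pass the threshold (limma adjusted p = 0.999). From 0.5 to 6 h both *Rel*-/- libraries lay above both WT libraries, and the genotype difference was not called at any of these time points.

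*Tfrc* (chr16:32609208-32632880) encodes transferrin receptor 1, the main route for transferrin-bound iron. It was at 0.637 and 2.17 RPKM in WT libraries at 0 h and at 0.0541 and 0.0646 RPKM at 6 h. In the *Rel*-/- libraries it was at 2.63 and 1.23 RPKM at 0 h and 0.0797 and 0.0733 RPKM at 6 h. All 4 libraries at 6 h lay below every 0-h library, and the 6-h means were 23.6-fold and 25.2-fold lower than at 0 h in WT and *Rel*-/-. These values came from 27 to 61 reads at 6 h, and *Tfrc* was not among the genes tested. *Tfrc* thus stood low together with *Slc40a1* at 6 h in both genotypes, while *Slc11a2* stood high.

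*Slc25a37* (chr14:69859908-69903160) encodes mitoferrin 1, which carries iron across the inner mitochondrial membrane for heme and iron-sulfur cluster synthesis. In WT it was at 4.35 and 4.84 RPKM at 0 h, 11.8 and 22.3 at 0.5 h, 51.6 and 54.7 at 1 h, 12.1 and 6.74 at 2 h, and 10.9 and 9.49 RPKM at 6 h. In the libraries labelled *Rel*-/- it was at 3.21 and 2.81 RPKM at 0 h, 12.5 and 9.6 at 0.5 h, 19.8 and 15 at 1 h, 2.86 and 1.16 at 2 h, and 5.05 and 4.15 RPKM at 6 h. All 4 time courses peaked at 1 h. The groups did not overlap at 0, 1, 2 and 6 h, where each *Rel*-/- library lay below both WT libraries, and they overlapped at 0.5 h.

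*Slc25a37* rose by log2 3.5 ± 0.42 at 1 h in WT (11.6-fold in the means, limma adjusted p = 4.93e-05) and by 2.48 ± 0.42 in *Rel*-/- (5.79-fold, adjusted p = 0.000677), the second no longer called without *Rel*-/- time course replicate 1 (2.37) or 2 (2.59). The ratio of WT to *Rel*-/- means was 1.53 at 0 h, 3.05 at 1 h, 4.68 at 2 h and 2.22 at 6 h. Between same-numbered libraries at 2 h it was 4.23 in replicate 1 and 5.79 in replicate 2. The log2 difference at 2 h was −2.24 ± 0.42, and leaving out 1 library at that time point gave −1.82 without WT 2 h replicate 1, −2.66 without WT 2 h replicate 2 and −1.62 without *Rel*-/- 2 h replicate 2, each no longer past the threshold. It was −1.82 without WT time course replicate 1, −2.85 and −1.62 without *Rel*-/- time course replicate 1 or 2, and −2.24 with only the libraries compared fitted, and passed in none of these. The test of a different change by genotype at 2 h did not pass (log2 −1.64 ± 0.59, limma adjusted p = 0.998).

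**Figure D2:**
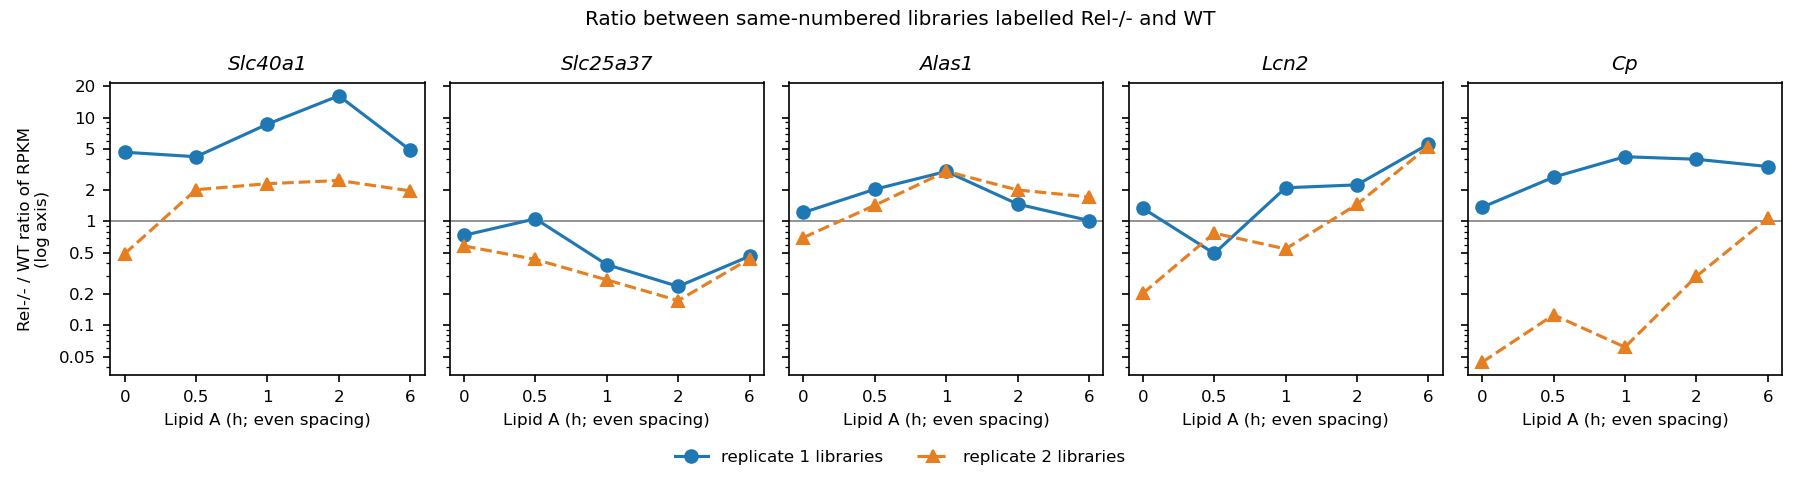
Ratio of RPKM in libraries labelled *Rel*-/- to RPKM in the same-numbered WT libraries, on a logarithmic axis, against hours of lipid A at even spacing for 5 of the genes (circles, replicate 1; triangles, replicate 2; grey line, ratio of 1). The replicates lie close together for *Slc25a37* and *Alas1* at 1 h and for *Lcn2* at 6 h (5.54 and 5.26), and far apart for *Slc40a1* at 2 h (16.2 and 2.48) and for *Cp* at 0 h (1.37 and 0.0442).

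Heme synthesis was represented by *Alas1* (chr9:106135786-106150285), which encodes the enzyme of its rate-limiting step outside the red cell lineage. In WT it was at 1.12 and 1.81 RPKM at 0 h, 0.403 and 0.481 at 0.5 h, 1.6 and 1.93 at 1 h, 1.56 and 0.99 at 2 h, and 3.92 and 2.59 RPKM at 6 h. In the libraries labelled *Rel*-/- it was at 1.37 and 1.27 RPKM at 0 h, 0.821 and 0.687 at 0.5 h, 4.85 and 5.87 at 1 h, 2.3 and 1.99 at 2 h, and 3.99 and 4.48 RPKM at 6 h. All 4 time courses had a low point at 0.5 h, and from 0.5 to 6 h every *Rel*-/- library was above both WT libraries.

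At 0.5 h *Alas1* fell by log2 −1.50 ± 0.30 in WT (limma adjusted p = 0.00241), and in *Rel*-/- the change was −0.74 ± 0.30 (adjusted p = 0.0853). At 1 h it rose by 1.94 ± 0.30 in *Rel*-/- (4.06-fold, adjusted p = 0.00043) while the WT value was 0.28 ± 0.30 (adjusted p = 0.505). The direct test of that difference did not pass the threshold (log2 1.65 ± 0.43, adjusted p = 0.406). At 6 h it had risen in both, by 1.11 and 1.61 (adjusted p = 0.0166 and 0.00165), and the WT rise no longer passed without WT 0 h replicate 1 (0.78). *Alas1* counted as expressed only through its WT 6-h mean of 3.26 RPKM, and without WT 6 h replicate 1 it was not tested at all. Without *Rel*-/- time course replicate 1 or 2, the *Rel*-/- rises at 1 h (2.12 and 1.75) and 6 h (1.74 and 1.5) and the WT rise at 6 h (1.11 each time) were not called, and with only the libraries compared fitted neither WT change was. With all 24888 genes tested instead, so that no group decides, the adjusted p of these 6-h rises was 0.0138 and 0.00103 (limma). The *Rel*-/- mean at 1 h was 3.03 times the WT mean, with ratios of 3.03 and 3.04 between same-numbered libraries and a log2 difference of 1.55 ± 0.30. Leaving out any of the 4 libraries at 1 h kept this difference between 1.41 and 1.68, but it no longer passed the threshold. The same was so without either *Rel*-/- library at 6 h, where it was 1.55 each time, and with only the libraries compared fitted (1.55). It was 1.68 and 1.41 without *Rel*-/- time course replicate 1 or 2, and was not called.

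Heme breakdown was represented by *Hmox1* (chr8:77617517-77624492), which encodes inducible heme oxygenase. WT replicate 1 held 8.75, 2.18, 1.15, 2.3 and 15.6 RPKM at 0, 0.5, 1, 2 and 6 h, and WT replicate 2 held 2.78, 1.06, 0.441, 0.517 and 4.7 RPKM. The libraries labelled *Rel*-/- held 6.55, 2.89, 2.8, 4.64 and 23.7 RPKM in replicate 1 and 3.09, 1.11, 0.321, 0.773 and 7.88 RPKM in replicate 2. Every time course was at its lowest at 1 h and at its highest at 6 h. Replicate 1 exceeded replicate 2 in all 10 groups, by 2.06- to 4.44-fold in WT and 2.12- to 8.71-fold in *Rel*-/-.

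This replicate difference was larger for *Hmox1* than the genotype difference, since the ratios of *Rel*-/- to WT means were 0.836, 1.23, 1.96, 1.92 and 1.56 at the 5 time points. With the 20 libraries taken as independent, no change in *Hmox1* from 0 h passed the threshold; the log2 change at 1 h was −2.62 ± 1.10 in WT (limma adjusted p = 0.0791) and −2.06 ± 1.10 in *Rel*-/- (adjusted p = 0.165). With the replicate block, falls at 0.5, 1 and 2 h passed in both, with adjusted p = 0.000215 and 0.00123 at 1 h. With the same block the 6-h level was higher than at 0 h in *Rel*-/- (log2 1.58, adjusted p = 0.00531), while the WT change of 0.78 did not pass (adjusted p = 0.121). Under that block no difference between genotypes passed for *Hmox1*.

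Iron storage was represented by *Fth1* (chr19:10057136-10059601), the ferritin heavy chain, whose many processed copies in the genome make its read assignment uncertain. Its values ranged from 33.4 RPKM in WT replicate 1 at 0.5 h to 183 RPKM in *Rel*-/- replicate 1 at 6 h. At 6 h it was at 121 and 84.2 RPKM in WT and at 183 and 102 RPKM in *Rel*-/-, against 42.8 and 61.6, and 64.9 and 51.4 RPKM at 0 h. Each 6-h library was the highest of its time course. The 6-h means were 1.97- and 2.44-fold those at 0 h, with log2 changes of 0.98 ± 0.55 and 1.24 ± 0.55 that did not pass (limma adjusted p = 0.181 and 0.0824). With a block for each time course both passed (adjusted p = 0.042 and 0.0126), and the *Rel*-/- change also passed after rescaling (1.39, adjusted p = 0.0364) and with only the libraries compared fitted (1.24, adjusted p = 0.0423).

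Secreted proteins that act on iron outside the cell were represented by *Lcn2* and *Cp*. *Lcn2* (chr2:32240157-32243259) encodes lipocalin 2, which binds bacterial siderophores. In WT it was at 0.0175 and 0.116 RPKM at 0 h, 0.0549 and 0.168 at 0.5 h, 0.175 and 0.54 at 1 h, 0.583 and 0.844 at 2 h, and 6.45 and 4.23 RPKM at 6 h. In the libraries labelled *Rel*-/- it was at 0.0235 RPKM in both at 0 h, 0.027 and 0.129 at 0.5 h, 0.369 and 0.294 at 1 h, 1.31 and 1.23 at 2 h, and 35.7 and 22.3 RPKM at 6 h. The groups overlapped at 0, 0.5 and 1 h, and both *Rel*-/- libraries were above both WT libraries at 2 and 6 h.

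At 0 h *Lcn2* had 2 and 3 reads in the *Rel*-/- libraries and 2 and 13 reads in the WT libraries, so its folds are imprecise. With the reads of both replicates summed and scaled to depth, the 6-h level was 1214 times the 0-h level in *Rel*-/- (exact 95% interval, 520 to 3739) and 78.1 times in WT (47.1 to 140). At 2 h the ratios were 54 (22.8 to 168) and 11.3 (6.6 to 20.7), and these intervals cover counting error only. The rise at 6 h passed in WT (log2 5.06 ± 0.53, limma adjusted p = 4.34e-05) and in *Rel*-/- (7.84 ± 0.53, adjusted p = 7.82e-07). *Lcn2* counted as expressed only through the WT 6-h group, and with all 24888 genes tested instead the adjusted p was 4.99e-05 and 1.01e-06 (limma). At 6 h the *Rel*-/- mean was 5.43 times the WT mean, with ratios of 5.54 and 5.26 in same-numbered libraries. The log2 difference was 2.41 ± 0.53 and was not called, nor was the different change by genotype at 6 h (2.78 ± 0.76). Without WT time course replicate 1 or 2 the difference was 2.71 and 2.11 and was called, and without *Rel*-/- time course replicate 1 or 2 it was 2.07 and 2.75 and was not. In each of these fits a genotype has 1 library per time point and the spread comes from the groups of the other genotype. In these same libraries the summed level of the neutrophil list, which is mostly *Csf3r*, at 6 h was 9.16 and 21.4 RPKM in the WT libraries and 29.3 and 32.6 RPKM in those labelled *Rel*-/-, and its part in the *Lcn2* difference was not tested.

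*Cp* (chr3:19857054-19907609) encodes ceruloplasmin, a copper oxidase that converts ferrous iron for loading onto transferrin. The WT replicates were far apart. Replicate 1 held 0.044, 0.0261, 0.0463, 0.743 and 4.96 RPKM at 0, 0.5, 1, 2 and 6 h, and replicate 2 held 1.66, 0.821, 2.73, 12.2 and 14.8 RPKM, which was 37.6 times as much at 0 h and 59 times as much at 1 h. The libraries labelled *Rel*-/- held 0.0605, 0.0697, 0.194, 2.95 and 16.8 RPKM in replicate 1 and 0.0732, 0.103, 0.168, 3.62 and 15.7 RPKM in replicate 2. The *Rel*-/- replicates lay between the 2 WT replicates from 0 to 2 h and above both at 6 h. In WT replicates 1 and 2 the summed neutrophil list, which is mostly *Csf3r*, was at 1.45 and 8.72 RPKM at 0 h and 0.988 and 11.3 RPKM at 1 h. Without *Csf3r* the list summed to 0.289 and 1.59 RPKM at 0 h. The summed macrophage list was at 69.3 and 187 RPKM at 0 h and 60.5 and 98.6 RPKM at 1 h. The part of these lists in the *Cp* values was not tested.

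In the *Rel*-/- cells *Cp* rose by log2 4.34 ± 1.49 at 2 h and 6.61 ± 1.49 at 6 h (limma adjusted p = 0.0287 and 0.00455), with a 243-fold higher mean at 6 h. The 2-h call was lost when any of the 4 libraries compared was left out, with values of 4.19 to 4.48, and with all 24888 genes tested. Neither call was kept without *Rel*-/- time course replicate 1 or 2, where the 6-h values were 6.51 and 6.72. In WT the 6-h change was 4.11 ± 1.49 (adjusted p = 0.0527, and 0.0114 with the replicate block), from RPKM ratios of 113 in replicate 1 and 8.92 in replicate 2. The WT change at 2 h was 2.68 ± 1.49 (limma adjusted p = 0.156, and 0.0565 with the replicate block), from ratios of 16.9 and 7.38. With a block for each time course both WT changes passed (limma adjusted p = 0.000679 at 2 h and 6.74e-05 at 6 h). *Cp* shares 11665 bases, 23.1% of its span, with *Hps3*, a gene annotated on the opposite strand, and although the library kit was stranded, the sources used here do not give the strandedness of the counting. *Hps3* was at 2.46 and 4.37 RPKM in the WT libraries at 0 h and at 0.892 and 0.709 RPKM at 1 h. At 0 h *Hps3* had 3575 reads in WT replicate 1 and 3509 in *Rel*-/- replicate 1, where *Cp* had 82 and 84, and the *Hps3* means at 6 h were 0.685 and 0.659 of those at 0 h in WT and *Rel*-/-. Of the other genes, *Slc11a2* overlaps the annotated gene *Gm5475* over 2.99% of its span.

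Promoter sequence from RefSeq (GRCm38.p6) was matched by symbol for 6 of the 10 genes, in 10 windows, and not for *Slc40a1*, *Slc11a2*, *Slc25a37* and *Hmox1*. In the 250 bases before each start, the NF-κB motif GGGNNNNNCC was searched on both strands and found in 8 of the 10 windows and 5 of the 6 genes, all but *Slc11a1*, beside 45.8% of all 32851 promoters. The antioxidant response element core TGACNNNGC was found in 0 of these 10 windows, beside 10.2% of all promoters. A match describes the letters only. The windows of *Lcn2* and *Cp* are shown because these 2 members had the largest ratios of 6-h to 0-h means in both genotypes, with the NF-κB match in capitals at 102 and 146 bases before the start, each on the reverse strand. *Cp* has another listed start, whose window holds no match. The *Lcn2* window is chr2:32387740-32387989 on the minus strand and the *Cp* window chr3:19956999-19957248 on the plus strand, both 5′ to 3′.
Lcn2: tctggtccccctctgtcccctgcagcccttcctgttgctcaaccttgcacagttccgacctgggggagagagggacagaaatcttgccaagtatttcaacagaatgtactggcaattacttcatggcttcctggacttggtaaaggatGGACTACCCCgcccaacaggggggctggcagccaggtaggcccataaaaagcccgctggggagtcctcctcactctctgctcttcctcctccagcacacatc
Cp: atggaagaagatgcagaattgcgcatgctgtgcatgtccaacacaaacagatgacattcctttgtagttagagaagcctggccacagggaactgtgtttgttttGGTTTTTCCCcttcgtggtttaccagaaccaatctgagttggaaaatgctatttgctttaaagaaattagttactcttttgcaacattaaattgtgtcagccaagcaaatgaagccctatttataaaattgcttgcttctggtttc

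Counted together, the 9 tested genes are set beside all 2980 expressed genes, and since the 10 were chosen with these data known, nothing is read from their counts. In WT at 0.5 h, 1 of the 9 was called higher and 1 lower at an adjusted p under 0.05 (limma), beside 14.1% and 16.7% of expressed genes. At 1 h the counts were 2 higher and 1 lower beside 16.3% and 19.9%, and at 2 h they were 2 and 2 beside 22% and 23.4%. At 6 h in WT, 3 were higher and 1 lower beside 15.2% and 15.6%. In *Rel*-/- cells, 2 were higher and 0 lower at 0.5 h beside 13.9% and 15.6%. At 1 h in *Rel*-/- cells, 4 were higher and 0 lower beside 16.6% and 17.3%, and at 2 h, 3 and 1 beside 22.7% and 26.9%. At 6 h in *Rel*-/- cells, 4 were higher and 1 lower beside 19.5% and 22.8%. For the comparisons without a lower call, limma gave 2 genes lower at 0.5 h and 1 at 1 h at an unadjusted p under 0.05. With the replicate block the genes called lower numbered 3, 3, 3 and 1 in WT and 2, 2, 3 and 1 in *Rel*-/- at 0.5, 1, 2 and 6 h, beside 727, 766, 881 and 708 and then 711, 708, 992 and 893 of all 2980 genes. Those called higher numbered 1, 3, 2 and 5 and then 2, 4, 3 and 5, beside 493, 598, 795 and 629 and then 492, 613, 786 and 711.

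Without *Slc40a1*, tested through its high WT 0-h group, the lower counts of the other 8 were 1, 0, 1 and 0 in WT and 0, 0, 1 and 0 in *Rel*-/- at 0.5, 1, 2 and 6 h, and 1, 2, 1 and 0 and then 1, 0, 1 and 0 at an unadjusted p under 0.05 (limma). With the block they were 2, 2, 2 and 0 and then 1, 1, 2 and 0. Beyond *Slc40a1*, *Hmox1* and *Cp*, the calls the block added were *Slc11a1* at 1 h, *Slc25a37* at 6 h and *Lcn2* at 1 h, all in WT (log2 −1.62, 1.13 and 1.40, limma adjusted p = 0.0183, 0.0339 and 0.0388).

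Between genotypes, *Alas1* was the 1 gene of the 9 called higher at 1 h, beside 0.436% of expressed genes called higher and 0.537% lower, and *Slc25a37* the 1 called lower at 2 h, beside 0.738% lower and 0.101% higher. At 0 h, 0 of the 9 and 0% of expressed genes were called in either direction (limma), and at an unadjusted p under 0.05 the counts were 0 of the 9 and 34 higher and 19 lower genes of 2980. At 0.5 h, 0 of the 9 were called beside 0% higher and 0.134% lower, and at 6 h, 0 beside 0% higher and 0.0336% lower, while at an unadjusted p under 0.05 limma gave 0 of the 9 at 0.5 h and 1 in each direction at 6 h (*Lcn2* and *Slc25a37*). After rescaling of the libraries by their median ratio to a common reference, 16.7% of the 6 calls among all genes at 0.5 h were higher, against 0% of 4 before.

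The replicate block changed no call between genotypes among the 9, while over all 2980 genes it gave 6 higher and 14 lower at 0.5 h, 22 and 25 at 1 h, 5 and 32 at 2 h, and 1 and 3 at 6 h. Without the block the unadjusted counts over all genes were 106 higher and 103 lower at 0.5 h and 92 and 100 at 6 h. A different change by genotype, 0.5, 1, 2 or 6 h against 0 h, was called for 0 of the 9 and for 0% of the 2980. At an unadjusted p under 0.05 limma gave 0, 1, 1 and 1 of the 9 and, over all genes, 25 higher and 54 lower, 52 and 51, 20 and 65, and 14 and 30. Of the 30 calls made for the 9 genes in all comparisons, 26 of them outside *Slc40a1*, 11 were kept without *Rel*-/- time course replicate 1 and 10 without replicate 2.

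A list of 85 other genes of iron and heme metabolism, all present in the table, served to describe the wider pathway, and 14 of them counted as expressed, 5 through a single WT time point (*Mcoln1*, *Pcbp1*, *Slc48a1* and *Isca2* at 0 h, *Fbxl5* at 6 h). None of the 11 export and hepcidin genes was among the 14, and 1 of 16 uptake genes, 3 of 6 storage genes, 3 of 6 iron-sensing genes, 1 of 13 heme synthesis genes, 4 of 12 heme breakdown and transport genes and 2 of 21 mitochondrial genes were. In WT, 1 rose and 2 fell at 0.5 h, 0 rose and 4 fell at 1 h, 0 rose and 5 fell at 2 h, and 0 rose and 4 fell at 6 h (limma, adjusted p under 0.05; background shares as above). In the *Rel*-/- cells, 1 rose and 1 fell at 0.5 h, 0 rose and 3 fell at 1 h, 2 rose and 3 fell at 2 h, and 1 rose and 3 fell at 6 h. For the zeros, the counts higher at an unadjusted p under 0.05 were 0, 0 and 1 in WT at 1, 2 and 6 h and 1 in *Rel*-/- at 1 h. The median log2 change of the 14 was −1.05 at 1 h in WT and −0.93 in *Rel*-/-, beside −0.18 and −0.10 over all expressed genes. Since 4 of the 14 were tested through a high 0-h group, the WT median is lowered by how they were chosen. Over all 85 genes of the list, whatever their level, the medians were −0.83 and −0.93, beside −0.02 and −0.07 over all 24888 genes, many of them near 0 RPKM throughout. Without the 5 genes expressed at a single time point, the lower counts of the other 9 were 1, 3, 4 and 2 in WT and 0, 2, 2 and 2 in *Rel*-/- at 0.5, 1, 2 and 6 h, with 2 at an unadjusted p under 0.05 beside that 0 (limma).

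Under the replicate block the lower calls at 1 h in WT numbered 7 of 14, and 5 of those 9, beside 766 of all 2980 genes. In *Rel*-/- the counts in either direction became 6 at 0.5 h and 6 at 1 h, beside 1203 and 1321 of all genes. *Ftl1*, the ferritin light chain, gained a call at 1 h in WT (log2 −1.55, limma adjusted p = 0.0209 with the block, 0.221 without it) and at 2 h in both genotypes (−2.12 and −1.65). *Slc48a1*, whose product carries heme out of the phagolysosome, was tested through its WT 0-h group alone, so its values, −2.17, −2.11 and −1.54 at 0.5, 1 and 2 h in WT, are a description. In *Rel*-/- it gained calls at 0.5 and 1 h (−1.98 and −1.44). The other calls gained with the block were lower ones for *Blvrb* at 0.5 and 1 h (−1.47 and −1.16), *Mcoln1* and *Isca2* at 0.5 h (−1.08 and −1.25), *Lrp1* at 2 h (−2.05) and *Pcbp1* at 6 h (−0.68) in *Rel*-/- and *Lrp1* at 1 h (−1.99) in WT. Higher ones were gained for *Blvrb* at 6 h (1.05) and *Nfe2l2* at 1 h (1.35) in *Rel*-/-. With the block *Fbxl5* also passed at 6 h in WT (0.89), but it was tested through that group alone, so this value is a description.

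*Flvcr1* and *Ppox* fell at 1, 2 and 6 h in both genotypes, and *Mcoln1* at 1 and 2 h in both. *Flvcr1*, which encodes a heme exporter of the plasma membrane, was at 3.01 and 3.79 RPKM in WT at 0 h and at 0.259 and 0.325 RPKM at 6 h, and at 4.85 and 5.55 and then 0.634 and 0.821 RPKM in *Rel*-/-. No 6-h library overlapped those at 0 h, and the log2 change was −3.15 ± 0.36 in WT and −2.69 ± 0.36 in *Rel*-/- (limma adjusted p = 7.58e-05 and 0.000176). *Ppox*, the penultimate enzyme of heme synthesis, fell at 1 h by log2 −1.55 in WT and −1.75 in *Rel*-/- (adjusted p = 0.00999 and 0.00546), calls lost without WT 0 h replicate 2 (−1.31) and *Rel*-/- 1 h replicate 2 (−1.11). *Mcoln1*, a lysosomal channel that lets iron out, fell at 2 h by −2.09 and −2.65 (adjusted p = 0.00179 and 0.000339, and 0.00344 and 0.000623 with all 24888 genes tested). At 6 h *Mcoln1* was at −1.28 in WT and −1.12 in *Rel*-/-, and the second of these passed narrowly (limma adjusted p = 0.0497) and not with all genes tested (0.059), with rescaling (0.0533), with a pseudocount of 0.01 (0.0602) or without the trend (0.0505). Of the calls of these 3 genes at 1, 2 and 6 h, those of *Mcoln1* at 2 h and of *Flvcr1* at 2 and 6 h were kept when any single library was left out, and the rest were not. The *Mcoln1* call at 2 h in WT was lost without WT time course replicate 2 (−1.47). In *Rel*-/- those at 2 h of *Mcoln1* (−2.35) and *Flvcr1* (−2.02) were lost without *Rel*-/- time course replicate 2. That of *Flvcr1* at 6 h was lost without replicate 1 (−2.62) or 2 (−2.75). The WT 6-h values of *Flvcr1* rest on 7 and 12 reads.

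*Blvrb*, biliverdin reductase B, fell at 0.5 and 1 h in WT and, with the replicate block only, in *Rel*-/-. The WT changes were −1.99 and −2.44 (adjusted p = 0.0263 and 0.00812), and the calls were lost without 0.5 h replicate 2 (−1.75), either 0-h library (−2.09 and −1.89, at 0.5 h) or 1 h replicate 2 (−2.09, at 1 h). The scavenger receptor gene *Lrp1* fell at 2 h in WT by −2.61 (adjusted p = 0.0462), and the iron chaperone gene *Pcbp1* at 6 h by −1.19 (adjusted p = 0.0371, and 0.0477 with all 24888 genes tested). *Lrp1* was −1.56 without WT 0 h replicate 1, −1.35 without 2 h replicate 2 and −2.48 after rescaling, and its call was also lost without any 1 of the 10 *Rel*-/- libraries and with all 24888 genes tested (−2.61 each time). Within the WT time courses *Lrp1* was 5.36- and 7.77-fold lower at 2 h than at 0 h in replicates 1 and 2. With a block for each time course its 2-h fall passed in WT and in *Rel*-/- (limma adjusted p = 3.53e-06 and 1.73e-05). *Pcbp1* was −1.25 without WT 0 h replicate 2, −1.40 without 6 h replicate 1 and −0.99 without 6 h replicate 2, and none of these passed.

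Among regulators, *Nfe2l2*, which encodes the stress-response factor NRF2, was at 9.78 and 16.9 RPKM in WT at 0 h and 26.6 and 83.9 RPKM at 0.5 h, and at 11.8 and 11.2 and then 77.3 and 75.1 RPKM in *Rel*-/-. It rose at 0.5 h by log2 1.87 ± 0.49 in WT and 2.72 ± 0.49 in *Rel*-/- (limma adjusted p = 0.0113 and 0.00133), and had fallen below its 0-h level in WT by 2 h (−1.56, adjusted p = 0.0218). The WT rise was 1.5 without WT 0 h replicate 1 and 1.04 without 0.5 h replicate 2, the WT fall −1.17 without 0 h replicate 2 and −1.05 without 2 h replicate 2, and none of these passed. Neither WT change (1.87 and −1.56) was called without either *Rel*-/- time course or with only the libraries compared fitted. The WT fall was not called without WT time course replicate 2 (−0.66), nor the *Rel*-/- rise without *Rel*-/- time course replicate 1 (2.73) or 2 (2.70). *Bach1*, a heme-sensing repressor of *Hmox1*, was at 2.66, 2.91, 1.65, 4.66 and 2.61 RPKM in WT replicate 1 but at 6.49, 8.48, 28.5, 22.2 and 4.63 RPKM in WT replicate 2. In *Rel*-/- it was at 3.51, 4.35, 6.5, 22 and 8.03 RPKM in replicate 1 and 3.72, 6.95, 8.31, 22.8 and 6.88 RPKM in replicate 2, and its rise at 2 h passed there (log2 2.59 ± 1.02, adjusted p = 0.0491). That call was close to the threshold and was lost when any of 14 single libraries was left out, with values of 2.55 to 2.64.

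*Fbxl5*, the iron-sensing adaptor that marks iron regulatory protein 2 for degradation, had the largest log2 difference between genotypes of the 14 at 6 h. In WT it was at 1.82 and 2.03 RPKM at 0 h, 0.593 and 0.473 at 0.5 h, 1.1 and 1.97 at 1 h, 1.83 and 3.69 at 2 h, and 3.05 and 4.39 RPKM at 6 h. In the libraries labelled *Rel*-/- it was at 2.48 and 3.46 RPKM at 0 h, 1.12 and 0.896 at 0.5 h, 2.21 and 1.89 at 1 h, 7.08 and 6.62 at 2 h, and 17.3 and 14.7 RPKM at 6 h. Both *Rel*-/- libraries lay above both WT libraries at each time point except 1 h, and at 6 h the ratio of means was 4.3. *Fbxl5* fell at 0.5 h in both genotypes (log2 −1.68 and −1.46, limma adjusted p = 0.0028 and 0.00757) and rose at 6 h in *Rel*-/- (2.40 ± 0.35, adjusted p = 0.000278). The fall in *Rel*-/- no longer passed without *Rel*-/- 0 h replicate 2 (−1.23) or 0.5 h replicate 2 (−1.31). Without *Rel*-/- time course replicate 1 or 2, neither that fall (−1.84 and −1.08) nor the *Rel*-/- rise at 6 h (2.06 and 2.75) was called.

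Between genotypes, 0 of the 14 genes were called at any time point by limma, and at an unadjusted p under 0.05 there were 1, 1, 0, 1 and 2 genes higher and 0 lower at 0, 0.5, 1, 2 and 6 h. For *Fbxl5* at 6 h the log2 difference was 2.09 ± 0.35 with an adjusted p = 0.0676, and it passed with the replicate block (adjusted p = 0.0258). A different change by genotype was called for 0 of the 14 at each time point, with 0, 0, 0 and 1 genes at an unadjusted p under 0.05.

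**Figure D3:**
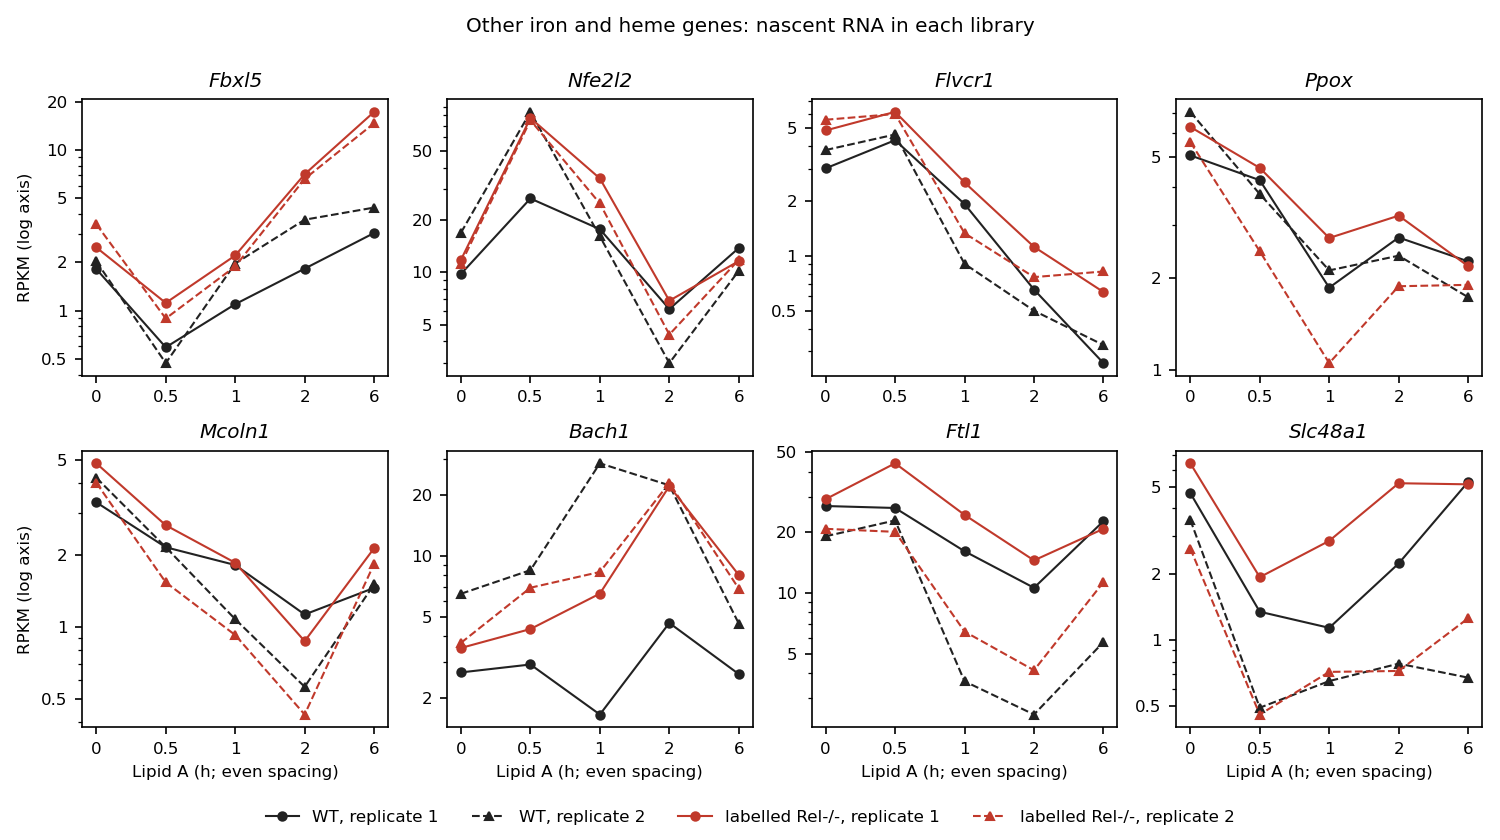
RPKM of 8 of the 14 other expressed iron and heme genes on logarithmic axes against hours of lipid A at even spacing, with 1 line per time course (black, WT; red, labelled *Rel*-/-; solid with circles, replicate 1; dashed with triangles, replicate 2). *Fbxl5* ends at 17.3 and 14.7 RPKM in *Rel*-/- against 3.05 and 4.39 RPKM in WT, *Nfe2l2* peaks at 0.5 h, and for *Ftl1* and *Slc48a1* replicate 1 lies above replicate 2 in each genotype.

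The replicate difference seen for *Hmox1* was shared by some of these genes. Replicate 1 exceeded replicate 2 in all 10 groups for *Hmox1* alone among the 10 genes and for *Ftl1* and *Slc48a1* among the 14 others, beside 4.6% of the 2980 expressed genes, while 5.03% of expressed genes were lower in replicate 1 in all 10 groups and none of these 24 genes was. *Slc48a1* was 1.33- to 7.8-fold higher in replicate 1 in WT and 2.45- to 7.18-fold in *Rel*-/-, and *Ftl1* 1.16- to 4.43-fold and 1.41- to 3.8-fold. *Slc40a1* was higher in replicate 1 in 9 of 10 groups, by a median of 2.85-fold in WT and 10.7-fold in *Rel*-/-. *Ftl1*, *Slc48a1* and *Bach1* were singled out after their values were seen. The opposite held for *Cp*, *Slc11a2* and *Bach1* in WT, where replicate 1 was the lower in all 5 groups.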

How the data were processed

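Chromatin-associated RNA of 20 libraries was analysed here as 1 table of RPKM values for 24888 genes. The authors aligned the reads to mm9 with HISAT2, sorted them with SAMtools, counted them per gene with SeqMonk, divided by depth and length and deposited the RPKM values; only those values were used. The lowest value of each library was taken as 1 read, which returns whole reads and the depth, and since 1 read may stand for none, values at that level are uncertain. Reported positions are those of the table, and 20031 of 20236 symbols shared with GENCODE vM1 (99%) overlap its genes.

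Genes with a WT group mean over 3 RPKM at 1 or more times were tested (2980). limma (3.58.1, R 4.3.3; lmFit, then eBayes with trend) was fitted to log2(RPKM + 0.1) with 1 mean per group over all 20 libraries, with 10 residual and 3.14 prior degrees of freedom, and Benjamini-Hochberg adjusted p under 0.05 as the threshold. Log2 differences of low genes are pulled towards 0 by the added 0.1. Alone, 2 libraries against 2 cannot reach an exact p under 0.333. The fit was tested on simulated data. Other steps used Python 3.11.15, pandas 2.3.3, numpy 2.4.6 and matplotlib 3.10.9.

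The members and lists were chosen with earlier results of these data known. All members are named. Of the 85 other genes, the text names those called between genotypes and the 4 largest changes called at each WT time, along with the 2 nearest genes on each side of *Slc40a1* and the 5 most correlated with it. Outside this rule, *Fbxl5* between genotypes and *Ftl1*, *Slc48a1*, *Bach1* and *Isca2* were named after their values were seen. The labels do not pair same-numbered WT and *Rel*-/- libraries, while the study's methods describe the genotypes as handled side by side in each repeat. Over expressed genes, the deviations of same-numbered libraries from their group means correlated at 0.136, 0.472, 0.337, 0.420 and 0.192 at 0, 0.5, 1, 2 and 6 h between genotypes, and at 0.448 to 0.779 (WT) and 0.125 to 0.598 (*Rel*-/-) between times, so a fit with a replicate block is given where it changes a call.

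Intervals for low counts cover counting error only. Each group has 2 libraries, and RPKM over a gene span cannot separate synthesis from retention on chromatin. RPKM is relative to each library's total, so a shift shared by most genes would not show. The genotype label of the *Rel*-/- libraries could not be checked from *Rel* levels. Protein, iron and steady-state mRNA were not analysed here.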

Additional observations from a re-analysis of the deposited data

Results flagged for a closer look

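Among the members chosen by name, a gene stood on opposite sides of its 0-h level in the 2 genotypes in 2 instances. Each library was set against the 0-h library of its own time course. The other listed iron and heme genes are not part of this count. *Slc25a37* at 2 h was above in WT, by log2 1.47 and 0.48 in replicates 1 and 2, and below in *Rel*-/-, by −0.16 and −1.27, a difference of −1.69 between the mean changes. The limma test of a different change did not pass (adjusted p = 0.998). *Cp* at 0.5 h was below in WT, by −0.75 and −1.01, and above in *Rel*-/-, by 0.20 and 0.50, a difference of 1.23 (adjusted p = 1, not past the threshold).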

How the results depend on the processing

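The number of other iron and heme genes called was 3, 4, 5 and 4 of 14 in WT at 0.5, 1, 2 and 6 h, 2, 3, 5 and 4 in *Rel*-/-, and 0 between genotypes. With a threshold of 1 RPKM (36 list genes tested) the numbers were 17, 18, 17 and 14 in WT and 16, 18, 16 and 21 in *Rel*-/-, beside 3260, 3256, 3158 and 2428 and then 3169, 3071, 3526 and 3644 of all 7312 genes tested. With no threshold (85 tested) they were 35, 39, 29 and 33 in WT and 32, 37, 32 and 44 in *Rel*-/-, with 1 between genotypes at 6 h, beside 5856, 6477, 5581 and 4616, then 6211, 6819, 6707 and 7493, and 115 of all 24888. Fits of only the libraries compared gave 0, 0, 2 and 1 in WT, and 5 at 0.5 h and 6 at 1 h in *Rel*-/-, beside 89, 85, 580 and 180, and 1426 and 1366, of all 2980. The replicate block gave 7 at 1 h in WT, 6 at 0.5 h and 6 at 1 h in *Rel*-/-, and 1 between genotypes at 6 h, beside 1364, 1203, 1321 and 4. A block for each time course gave 5 and 7 at 0.5 and 1 h in WT and 8, 8 and 8 at 0.5, 1 and 6 h in *Rel*-/-, beside 1489, 1579, 1459, 1561 and 1813. A pseudocount of 1 gave 1 between genotypes at 6 h, beside 4.

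When 1 library or time course was left out, the number called in WT ranged from 1 to 3, 2 to 6, 2 to 7 and 1 to 5 at 0.5, 1, 2 and 6 h. In *Rel*-/- it ranged from 0 to 5, 0 to 7, 0 to 10 and 0 to 10. Between genotypes it was 0 at 0 h and ranged from 0 to 1, 0 to 3, 0 to 2 and 0 to 3 at 0.5, 1, 2 and 6 h, and for a different change by genotype it was 0 throughout.

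Of the 30 calls of members, 17 were kept under every setting that leaves out no library, 5 with each library and time course left out wherever the gene was still tested, and 0 changed direction. The replicate block kept 30 of 30; the calls it added among members are given in the report, and it changed no other. Fits of only the libraries compared kept 20, no threshold 27, and a pseudocount of 0.01 or 1 kept 29 each. Without WT time course replicate 1 or 2, 20 of 25 and 24 of 30 were kept.

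With RPKM rescaled by the median ratio, the median log2 change of all genes was higher than without in each comparison with 0 h. Unscaled minus rescaled, it differed by −0.18, −0.13, −0.13 and −0.09 in WT at 0.5, 1, 2 and 6 h and by −0.17, −0.11, −0.22 and −0.15 in *Rel*-/-. Between genotypes these differences were 0.08, 0.09, 0.11, −0.00 and 0.02 at 0, 0.5, 1, 2 and 6 h. Rescaling raised the share of the calls from 0 h, among all expressed genes, that were higher. In WT it went from 45.7, 44.9, 48.5 and 49.2% to 53.4, 49.9, 53.3 and 53.8% at 0.5, 1, 2 and 6 h. In *Rel*-/- it went from 47.1, 49, 45.8 and 46.2% to 55.2, 52.8, 54.2 and 52.9%.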
